A study of Drosophila melanogaster with 8 samples.

Results

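The genes described here are those carried by the mitochondrial genome of Drosophila melanogaster, taken as every gene in the deposited expression tables whose FlyBase symbol begins with mt:. The rule found 37 of 17473 genes, namely 13 protein-coding genes, 2 ribosomal RNA (rRNA) genes and 22 transfer RNA (tRNA) genes. Their expression was compared in whole larvae of the third larval stage (L3) from 4 strains with 2 libraries each. The study describes the larvae of all strains as wandering. The U12Δ/Δ and U6atacΔ/Δ larvae were homozygous for deletions of the U12 and U6atac small nuclear RNA (snRNA) genes, whose RNAs belong to the minor spliceosome. The SmnΔ/Δ larvae were homozygous for a deletion of Smn, the fly counterpart of the gene lost in spinal muscular atrophy, whose protein helps to assemble the RNA and protein particles of the spliceosome. The fourth strain was the w1118 wild type (WT). Each library was made from a pool of larvae, and the study calls the libraries of a strain biological repeats. The study also set these transcriptomes beside those of staged larvae. It grouped the U12Δ/Δ and U6atacΔ/Δ larvae with WT larvae at a puff stage late in L3, but placed the SmnΔ/Δ larvae apart, at a point given only as after early L3, so that stage and genotype cannot be told apart in the comparisons with SmnΔ/Δ larvae. The deletion strains were made by CRISPR/Cas9, crossed back to the w1118 stock and kept over balancer chromosomes, and the mitochondrial genotype of the strains is not given in the sources used here. The study asked whether loss of the minor spliceosome leads to the defects seen on loss of Smn, and the mitochondrial genes have no introns for a spliceosome to remove.

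In animals the mitochondrial genome is a small circle that is transcribed as long precursors from both strands. tRNAs lie between most of the mRNAs and rRNAs, and their excision releases the RNAs on either side. The encoded proteins are core subunits of respiratory complexes I, III and IV and of ATP synthase, and they are made on mitochondrial ribosomes built around the 2 rRNAs. All proteins that transcribe, cut and translate these RNAs come from the nucleus, as do the other subunits of the complexes. Fly larval muscle and other tissues with a high demand for ATP hold many mitochondria, so that in RNA from whole larvae a change in the number of mitochondria, in tissue mass or in RNA per mitochondrion cannot be told apart.

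Levels are given as TPM (transcripts per 1000000), a measure that is scaled by gene length and sums to 1000000 in each library, so a value is a share of the library and not an amount per larva. The study lists the reads mapped in each library, but TPM does not keep the number of reads counted for a gene. The libraries differed widely in makeup. The 10 most abundant nuclear genes took between 12.9% and 35.0% of a library, and the 6 salivary gland glue genes checked took 21.1% of U12Δ/Δ replicate 1 and 0.00183% of U12Δ/Δ replicate 2, against 1.62% and 0.805% in the WT libraries. The glue genes summed to 1.06 and 0.872 TPM in the SmnΔ/Δ libraries, with 5 and 4 of the 6 above 0, against 16212 and 8048 TPM in the WT libraries. The 6 late fat body genes summed to 3.89 and 0.507 TPM in the SmnΔ/Δ libraries, with 6 and 5 above 0, against 37433 and 64728 TPM in the WT libraries. Glue and late fat body genes are switched on in the course of L3. In the SmnΔ/Δ libraries these genes thus did not bear out the wandering stage that the study names. The glue genes were also below both WT libraries in the U6atacΔ/Δ libraries (643 and 2220 TPM) and in U12Δ/Δ replicate 2 (18.3 TPM). The late fat body genes summed to 47448 and 116163 TPM in the U12Δ/Δ libraries and 28353 and 51157 TPM in the U6atacΔ/Δ libraries. Whether these strains matched WT larvae in stage was not tested. The part of these differences in the values below was not tested. As a check of the labels, snRNA:U12 was listed at 0 in both U12Δ/Δ libraries and at 0.0724 to 1.33 TPM in the other 6, Smn was at 4.57 and 0.653 TPM in the SmnΔ/Δ libraries, 9.76 and 200.3 TPM in the U12Δ/Δ libraries and 13.96 and 9.57 TPM in the U6atacΔ/Δ libraries, against 24.7 and 28.3 TPM in the WT libraries, and snRNA:U6atac was listed at 0 in all 8 libraries, which checks nothing.

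The mitochondrially encoded genes together took 1.93% and 2.44% of the TPM in the U12Δ/Δ libraries, 3.64% and 4.03% in the U6atacΔ/Δ libraries, 5.11% and 2.67% in the SmnΔ/Δ libraries, and 6.07% and 3.70% in the WT libraries. Both U12Δ/Δ libraries thus lay below both WT libraries, whereas the shares in the other deletion strains overlapped with WT. The mean share was 2.18% ± 0.366 in U12Δ/Δ larvae, 3.84% ± 0.273 in U6atacΔ/Δ larvae, 3.89% ± 1.72 in SmnΔ/Δ larvae and 4.88% ± 1.68 in WT larvae (SD, n = 2 each). The U12Δ/Δ mean was 0.447 of the WT mean, and it was 0.591 of the share in WT replicate 2 alone. No test was applied to a sum over the members, and with 2 libraries against 2 an exact two-sided test could not go below p = 0.333. The share in U12Δ/Δ larvae stayed below both WT libraries when the 10 most abundant nuclear genes were left out of each total, at 3.12% ± 0.219, against 5.78% in WT larvae. Scaling by the median ratio over genes was not applied to the sum. It divides by 0.687 and 0.902 in the U12Δ/Δ libraries and by 1.47 and 1.17 in the WT libraries, which would narrow the difference. The larval muscle genes, 9 checked, took 1.097% and 1.48% of the U12Δ/Δ libraries, 1.84% and 2.50% of the U6atacΔ/Δ libraries, 1.16% and 2.23% of the SmnΔ/Δ libraries, and 1.42% and 5.63% of the WT libraries, and their part in the mitochondrial share was not tested.

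**Figure D1:**
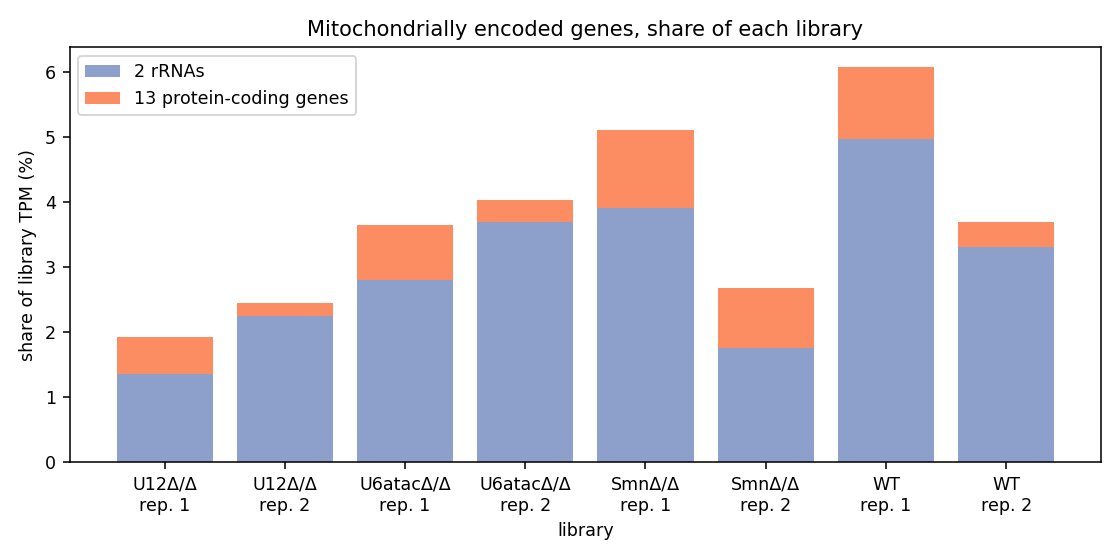
Share of the TPM of each library (%, y axis) in the 2 mitochondrial rRNAs (blue) and the 13 mitochondrial protein-coding genes (orange), with the 8 libraries on the x axis. The rRNAs made up most of every bar, and the total ran from 1.93% in U12Δ/Δ replicate 1 to 6.07% in WT replicate 1.

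Most of this share was the RNA of the large ribosomal subunit, mt:lrRNA, which lies on the minus strand of the mitochondrial genome from 12735 to 14058 (build dm6, as are all positions here). It made up between 65.3% and 91.9% of the mitochondrial TPM and was the most abundant mitochondrial RNA in 8 of 8 libraries. mt:lrRNA was at 13573 and 22445 TPM in the U12Δ/Δ libraries, 28016 and 36945 TPM in the U6atacΔ/Δ libraries, 39010.2 and 17451 TPM in the SmnΔ/Δ libraries, and 49690 and 33081 TPM in the WT libraries. Both U12Δ/Δ libraries were below both WT libraries, also when libraries were scaled by the median ratio over genes (median-ratio scaling), while the SmnΔ/Δ libraries differed 2.24-fold from each other. Among all genes of a library mt:lrRNA ranked 1 in U6atacΔ/Δ replicate 2, SmnΔ/Δ replicate 1 and WT replicate 1, and 11 in U12Δ/Δ replicate 1. The difference between U12Δ/Δ and WT larvae was -1.22 on the log2(TPM + 1) scale (SE 0.83) and did not pass the test (limma, Benjamini-Hochberg adjusted p = 0.644).

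The RNA of the small ribosomal subunit, mt:srRNA (minus strand, 14131 to 14916), was far lower in these tables than mt:lrRNA, although the subunits are used in equal number in a ribosome. It was at 28.6 and 6.55 TPM in the U12Δ/Δ libraries, 14.4 and 17.5 TPM in the U6atacΔ/Δ libraries, 9.55 and 24.4 TPM in the SmnΔ/Δ libraries, and 28.4 and 11.9 TPM in the WT libraries. The groups overlapped in each comparison with WT. The ratio of mt:lrRNA to mt:srRNA was between 474 and 4086, and the U12Δ/Δ and SmnΔ/Δ pairs each spanned the WT values, with 474 and 3425 in the U12Δ/Δ libraries, 1951 and 2116 in the U6atacΔ/Δ libraries, 4086 and 714 in the SmnΔ/Δ libraries, and 1748 and 2773 in the WT libraries. The 19 genes listed on the nuclear rDNA sequence did not exceed 5.64 TPM in any library, and any cytosolic rRNA genes listed elsewhere were not checked. The study describes mRNA sequencing, and how mRNA was enriched is not given in the sources used here.

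The 13 protein-coding genes took 0.566% and 0.198% of the U12Δ/Δ libraries, 0.841% and 0.334% of the U6atacΔ/Δ libraries, 1.20% and 0.923% of the SmnΔ/Δ libraries, and 1.096% and 0.387% of the WT libraries. The groups overlapped in every comparison with WT, and replicate 1 was higher than replicate 2 in each strain. The SmnΔ/Δ mean was 1.43 times the WT mean for the protein-coding genes, but 0.682 times for the rRNAs. By mean TPM over the 8 libraries the order was mt:CoIII (2053), mt:CoI (1531), mt:Cyt-b (1275), mt:CoII (638), mt:ND4 (357), mt:ND5 (337), mt:ATPase6 (332), mt:ND1 (317), mt:ND3 (44.8), mt:ND2 (30.2), mt:ATPase8 (10.04), mt:ND6 (7.76) and mt:ND4L (2.94). Few neighbours in this order kept their place in the single libraries. mt:CoIII was above mt:CoI in 3 of 8 libraries, mt:ND4 above mt:ND5 in 3 and mt:ATPase6 above mt:ND1 in 4, whereas mt:ND1 was above mt:ND3 in all 8. The widest spread over the 8 libraries was 64.0-fold for mt:ATPase8 and 53.1-fold for mt:ND6.

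**Figure D2:**
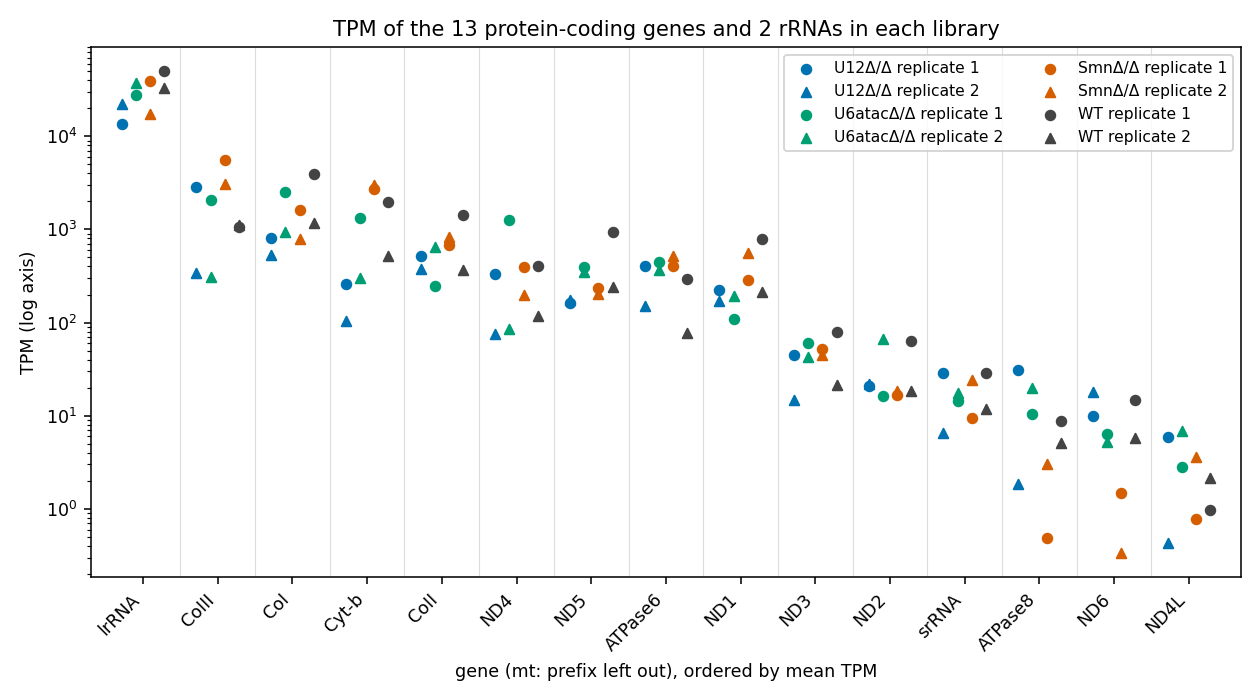
TPM (log y axis) of the 13 protein-coding genes and 2 rRNAs (x axis, in order of mean TPM) in the 8 libraries, with colour for the strain, circles for replicate 1 and triangles for replicate 2. mt:lrRNA stood above all other genes in every library, and for mt:ND6 both SmnΔ/Δ libraries (1.47 and 0.337 TPM) lay below the other 6.

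In the test across genes, 15 of the 37 members reached the mean of 1 TPM required, the 13 protein-coding genes and the 2 rRNAs. No member passed an adjusted p of 0.05 in any comparison with WT (limma on log2(TPM + 1), 11122 genes tested, Benjamini-Hochberg adjustment). At an unadjusted p under 0.05 there were 0 members in U12Δ/Δ larvae, 0 in U6atacΔ/Δ larvae and 1 in SmnΔ/Δ larvae. Over all genes tested the adjusted threshold called 0% for U12Δ/Δ against WT, 0% for U6atacΔ/Δ against WT and 1.51% for SmnΔ/Δ against WT, and the unadjusted threshold was met by 9.44%, 10.3% and 13.9% in the same order of comparisons. The median difference over the 15 members was -0.66 in U12Δ/Δ larvae, against -0.53 over all genes tested. It was -0.33 in U6atacΔ/Δ larvae, against -0.49 over all genes, and -0.04 in SmnΔ/Δ larvae, against -0.18. Above the median of all genes lay 7, 11 and 8 of the 15 members for U12Δ/Δ, U6atacΔ/Δ and SmnΔ/Δ larvae. Rescaling the libraries by the median ratio over genes shifted the median of all genes by 0.55, 0.54 and 0.17 in these comparisons, and the median of the members then was 0.05, 0.39 and 0.16.

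**Figure D3:**
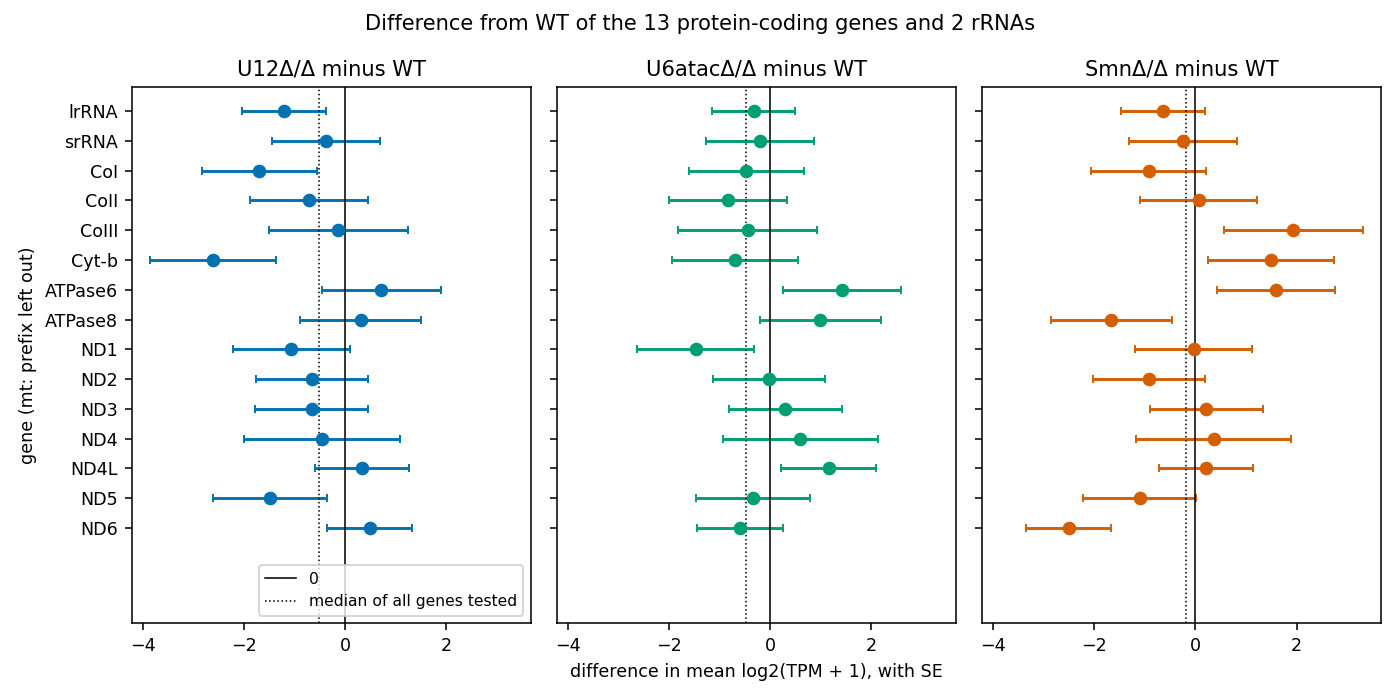
Difference in mean log2(TPM + 1) from WT (x axis) for the 15 members tested (y axis) in U12Δ/Δ, U6atacΔ/Δ and SmnΔ/Δ larvae, with the SE as bars, 0 as a solid line and the median of all genes tested as a dotted line. The points ran from -2.62 (mt:Cyt-b, U12Δ/Δ) to 1.94 (mt:CoIII, SmnΔ/Δ) and SEs were between 0.83 and 1.53.

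Complex IV, cytochrome c oxidase, passes electrons to oxygen, and its 3 mitochondrially encoded subunits hold the catalytic core. mt:CoI (plus strand, 1474 to 3009) was at 812 and 532 TPM in the U12Δ/Δ libraries, 2502 and 942 TPM in the U6atacΔ/Δ libraries, 1607 and 783 TPM in the SmnΔ/Δ libraries, and 3901 and 1169 TPM in the WT libraries. Both U12Δ/Δ libraries lay below both WT libraries, an order that was lost under median-ratio scaling, and the other strains overlapped with WT. The U12Δ/Δ difference of mt:CoI was -1.70 (SE 1.14, limma adjusted p = 0.639). mt:CoII (plus strand, 3083 to 3767) was at 518 and 372 TPM in the U12Δ/Δ libraries, 249 and 652 TPM in the U6atacΔ/Δ libraries, 679 and 838 TPM in the SmnΔ/Δ libraries, and 1429 and 365 TPM in the WT libraries, where the WT pair spanned all other values but that of U6atacΔ/Δ replicate 1.

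mt:CoIII, which encodes the third of these subunits, lies on the plus strand from 4736 to 5524. It was at 2838 and 343 TPM in the U12Δ/Δ libraries, 2045 and 311 TPM in the U6atacΔ/Δ libraries, 5618 and 3093 TPM in the SmnΔ/Δ libraries, and 1057 and 1116 TPM in the WT libraries. Both SmnΔ/Δ libraries were above both WT libraries, also under median-ratio scaling, while the U12Δ/Δ and U6atacΔ/Δ pairs spanned the WT values. The SmnΔ/Δ difference was 1.94 (SE 1.37, limma adjusted p = 0.554). The ratio of mt:CoIII to mt:CoI, which does not depend on how libraries are scaled, was 3.496 and 0.646 in the U12Δ/Δ libraries, 0.817 and 0.3299 in the U6atacΔ/Δ libraries, 3.497 and 3.95 in the SmnΔ/Δ libraries, and 0.271 and 0.955 in the WT libraries.

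Complex III carries electrons from ubiquinol to cytochrome c, and cytochrome b, encoded by mt:Cyt-b (plus strand, 10499 to 11635), is its only mitochondrially encoded subunit. mt:Cyt-b was at 261 and 103 TPM in the U12Δ/Δ libraries, 1314 and 299 TPM in the U6atacΔ/Δ libraries, 2745 and 2974 TPM in the SmnΔ/Δ libraries, and 1990 and 518 TPM in the WT libraries. Both U12Δ/Δ libraries were below both WT libraries and both SmnΔ/Δ libraries were above both, and these orders were the same under median-ratio scaling. The U12Δ/Δ difference from WT was -2.62 (SE 1.25, limma adjusted p = 0.533) and the SmnΔ/Δ difference was 1.49 (SE 1.25, adjusted p = 0.633). Without WT replicate 2 the SmnΔ/Δ difference was 0.52, and without WT replicate 1 it was 2.46. Set against each other, U12Δ/Δ minus SmnΔ/Δ larvae gave -4.12 (SE 1.25), with an unadjusted p of 0.00903 in limma and an adjusted p of 0.231.

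ATP synthase makes ATP from the proton gradient, and mt:ATPase6 and mt:ATPase8 encode subunits of its membrane part. The genes overlap by 7 bases on the plus strand, mt:ATPase8 from 3907 to 4068 and mt:ATPase6 from 4062 to 4736, and their products are read from a shared mRNA in animals. mt:ATPase6 was at 401 and 153 TPM in the U12Δ/Δ libraries, 445 and 364 TPM in the U6atacΔ/Δ libraries, 401 and 517 TPM in the SmnΔ/Δ libraries, and 296 and 76.5 TPM in the WT libraries. The U6atacΔ/Δ and SmnΔ/Δ libraries all lay above both WT libraries, also under median-ratio scaling, with differences of 1.41 (SE 1.17, limma adjusted p = 0.709) and 1.59 (SE 1.17, adjusted p = 0.574), which without WT replicate 2 were 0.44 and 0.62. mt:ATPase8 was at 30.9 and 1.86 TPM in the U12Δ/Δ libraries, 10.5 and 19.6 TPM in the U6atacΔ/Δ libraries, 0.483 and 3.04 TPM in the SmnΔ/Δ libraries, and 8.86 and 5.11 TPM in the WT libraries. For this gene the U6atacΔ/Δ libraries were above and the SmnΔ/Δ libraries below both WT libraries, and the SmnΔ/Δ difference was -1.66 (SE 1.19, adjusted p = 0.558).

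Complex I oxidizes NADH at the entry of the respiratory chain, and 7 of its subunits are mitochondrially encoded. Of these, mt:ND6 (plus strand, 9971 to 10495) had the smallest p in a comparison with WT. It was at 10.05 and 17.9 TPM in the U12Δ/Δ libraries, 6.44 and 5.27 TPM in the U6atacΔ/Δ libraries, 1.47 and 0.337 TPM in the SmnΔ/Δ libraries, and 14.9 and 5.76 TPM in the WT libraries. Both SmnΔ/Δ libraries were below all 6 others. The SmnΔ/Δ difference from WT was -2.51 (SE 0.84), with an unadjusted p of 0.0152 in limma and an adjusted p of 0.235. U12Δ/Δ minus SmnΔ/Δ larvae gave 2.99 for mt:ND6 (SE 0.84, limma adjusted p = 0.193) and U6atacΔ/Δ minus SmnΔ/Δ larvae gave 1.91 (SE 0.84, adjusted p = 0.428).

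mt:ND5 and mt:ND4, on the minus strand from 6409 to 8125 and from 8207 to 9545, encode proton-pumping subunits of the membrane arm of complex I. mt:ND5 was at 162 and 175 TPM in the U12Δ/Δ libraries, 397 and 351 TPM in the U6atacΔ/Δ libraries, 236 and 205 TPM in the SmnΔ/Δ libraries, and 927 and 243 TPM in the WT libraries. The libraries of a deletion strain differed by 1.08-fold, 1.13-fold and 1.15-fold in U12Δ/Δ, U6atacΔ/Δ and SmnΔ/Δ larvae. The U12Δ/Δ and SmnΔ/Δ libraries all lay below both WT libraries (limma adjusted p = 0.682 and 0.699), for U12Δ/Δ not under median-ratio scaling. mt:ND4 was at 330 and 74.7 TPM in the U12Δ/Δ libraries, 1253 and 84.6 TPM in the U6atacΔ/Δ libraries, 398 and 197 TPM in the SmnΔ/Δ libraries, and 402 and 117 TPM in the WT libraries. Its 14.8-fold gap between the U6atacΔ/Δ libraries was the widest of any member in that strain, and all groups overlapped with WT.

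mt:ND4L (minus strand, 9545 to 9835) shares 1 base with mt:ND4, with which it is read from a shared mRNA in animals, and had the lowest mean of the mRNAs. It was at 5.88 and 0.427 TPM in the U12Δ/Δ libraries, 2.82 and 6.93 TPM in the U6atacΔ/Δ libraries, 0.779 and 3.62 TPM in the SmnΔ/Δ libraries, and 0.969 and 2.13 TPM in the WT libraries. The U6atacΔ/Δ libraries were above both WT libraries (difference 1.15, SE 0.93, limma adjusted p = 0.697). mt:ND1 (minus strand, 11721 to 12659) was at 224 and 169 TPM in the U12Δ/Δ libraries, 110 and 194 TPM in the U6atacΔ/Δ libraries, 287 and 552 TPM in the SmnΔ/Δ libraries, and 792 and 211 TPM in the WT libraries. Only the U6atacΔ/Δ libraries lay below both WT libraries for mt:ND1, by -1.47 (SE 1.16, limma adjusted p = 0.685), and this order was lost under median-ratio scaling.

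mt:ND2 (plus strand, 240 to 1263) was at 20.8 and 21.7 TPM in the U12Δ/Δ libraries, 16.3 and 66.8 TPM in the U6atacΔ/Δ libraries, 16.5 and 18.5 TPM in the SmnΔ/Δ libraries, and 62.7 and 18.3 TPM in the WT libraries. mt:ND3 (plus strand, 5608 to 5961) was at 44.6 and 14.63 TPM in the U12Δ/Δ libraries, 60.3 and 42.7 TPM in the U6atacΔ/Δ libraries, 51.5 and 44.7 TPM in the SmnΔ/Δ libraries, and 78.9 and 21.4 TPM in the WT libraries. For these complex I genes every deletion strain overlapped with WT.

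Counted over the 15 members, 0 had both U12Δ/Δ libraries above both WT libraries and 4 had both below (mt:CoI, mt:ND5, mt:Cyt-b and mt:lrRNA), a share of 26.7%, against 10.4% above and 31.2% below over all genes tested. In U6atacΔ/Δ larvae 3 members were above (mt:ATPase8, mt:ATPase6 and mt:ND4L) and 1 below (mt:ND1), that is 20% and 6.67%, against 11.9% and 33% of all genes. In SmnΔ/Δ larvae 3 were above (mt:ATPase6, mt:CoIII and mt:Cyt-b) and 3 below (mt:ATPase8, mt:ND5 and mt:ND6), that is 20% each, against 20.4% and 25.6% of all genes. Under median-ratio scaling U12Δ/Δ had 1 member above (mt:ND6) and 2 below (mt:Cyt-b and mt:lrRNA), against 20.1% and 18.8% of all genes under that scaling. U6atacΔ/Δ then had 4 above (mt:lrRNA with the 3 named) and 0 below, against 21.9% and 20.1%, and SmnΔ/Δ had the same 6 members, against 23.3% and 22.6%. In the scaling as deposited, the shares of members below WT were thus no larger than the background in any of the 3 strains. The share above WT was larger than the background in U6atacΔ/Δ larvae only, which rests on 3 members and was not tested.

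Between the deletion strains, 0 members passed the adjusted threshold in U12Δ/Δ against SmnΔ/Δ larvae or in U6atacΔ/Δ against SmnΔ/Δ larvae (limma), where 1.31% of all genes were called in each. At an unadjusted p under 0.05 there were 2 members for U12Δ/Δ against SmnΔ/Δ (mt:ND6 and mt:Cyt-b) and 1 for U6atacΔ/Δ against SmnΔ/Δ (mt:ND6), with 11% and 11.6% of all genes. U12Δ/Δ libraries lay below both SmnΔ/Δ libraries for 7 of the 15 members (46.7%), against 29.5% of all genes. They lay above both for 2 (mt:ND2 and mt:ND6, 13.3%), against 12.9%. Of the 7 below, mt:Cyt-b alone kept that order under median-ratio scaling, where 20.4% of all genes lay below and 20.5% above. The U6atacΔ/Δ libraries lay below both SmnΔ/Δ libraries for 4 members (mt:CoII, mt:CoIII, mt:Cyt-b and mt:ND1, 26.7%), against 30.3%. They lay above both for 3 (mt:ATPase8, mt:ND5 and mt:ND6, 20%), against 14.6%. Under median-ratio scaling they were below for 2 (mt:CoIII and mt:Cyt-b) and above for 7 of the 15, against 21.6% and 22.5% of all genes. The U12Δ/Δ share below thus exceeded the background only in the scaling as deposited. The U6atacΔ/Δ share above exceeded it under both scalings, and neither was tested. These comparisons share the SmnΔ/Δ libraries. The mt:CoIII differences were -2.08 for U12Δ/Δ minus SmnΔ/Δ (SE 1.37, limma adjusted p = 0.623) and -2.38 for U6atacΔ/Δ minus SmnΔ/Δ (SE 1.37, adjusted p = 0.547).

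The share of each complex in the mitochondrial mRNA pool does not depend on library scaling, and these shares are given as a description with no test. Cytochrome b held 4.61% and 5.21% of the mRNA TPM in the U12Δ/Δ libraries, 15.6% and 8.96% in the U6atacΔ/Δ libraries, 22.8% and 32.2% in the SmnΔ/Δ libraries, and 18.2% and 13.4% in the WT libraries. U12Δ/Δ was below and SmnΔ/Δ above WT, with no overlap. The ATP synthase genes held 7.64% and 7.81% in the U12Δ/Δ libraries, 5.42% and 11.5% in the U6atacΔ/Δ libraries, 3.34% and 5.64% in the SmnΔ/Δ libraries, and 2.78% and 2.11% in the WT libraries. All 6 deletion libraries lay above both WT libraries, and nearly all of this was mt:ATPase6. The complex I genes held 14.1% and 23.9% in the U12Δ/Δ libraries, 22.0% and 22.5% in the U6atacΔ/Δ libraries, 8.23% and 11.1% in the SmnΔ/Δ libraries, and 20.8% and 16.0% in the WT libraries, with both SmnΔ/Δ libraries below the other 6. Complex IV held between 51.1% and 73.7%. Its share was 57.01% and 57.04% in the U6atacΔ/Δ libraries, just below the 58.3% and 68.5% of the WT libraries, and the U12Δ/Δ and SmnΔ/Δ libraries overlapped with WT. mt:CoIII and mt:Cyt-b together made up 69.4% and 65.7% of the mRNA TPM in the SmnΔ/Δ libraries and between 18.3% and 54.8% elsewhere.

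**Figure D4:**
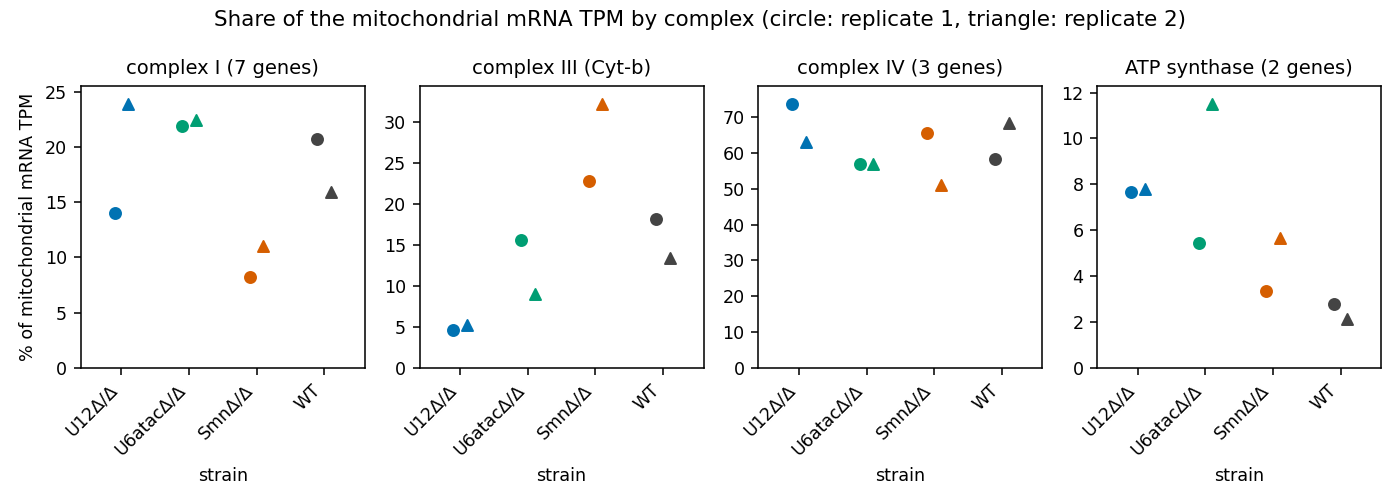
Share of the mitochondrial mRNA TPM (%, y axis) in the genes of complex I, complex III, complex IV and ATP synthase for the 4 strains (x axis), with circles for replicate 1 and triangles for replicate 2. The 6 deletion libraries lay between 3.34% and 11.5% for ATP synthase, above the 2.11% and 2.78% of WT.

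Genes that lie next to each other on the circle did not keep a fixed ratio. mt:ND6 and mt:Cyt-b are on the same strand with 3 bases between them, and the TPM of mt:Cyt-b over that of mt:ND6 was 25.9 and 5.75 in the U12Δ/Δ libraries, 204 and 56.9 in the U6atacΔ/Δ libraries, 1872 and 8823 in the SmnΔ/Δ libraries, and 134 and 89.9 in the WT libraries. U12Δ/Δ lay below and SmnΔ/Δ above WT in both libraries. The overlapping mt:ATPase6 and mt:ATPase8 gave ratios of 12.99 and 81.9 in the U12Δ/Δ libraries, 42.4 and 18.6 in the U6atacΔ/Δ libraries, 831 and 170 in the SmnΔ/Δ libraries, and 33.4 and 14.98 in the WT libraries, again highest in both SmnΔ/Δ libraries. For mt:ND4 over mt:ND4L the ratio varied between 12.2 and 510 with no order by strain, at 56.0 and 175 in the U12Δ/Δ libraries, 444 and 12.2 in the U6atacΔ/Δ libraries, 510 and 54.4 in the SmnΔ/Δ libraries, and 414 and 54.9 in the WT libraries. These ratios rest on mt:ND6, mt:ATPase8 and mt:ND4L, the lowest of the mRNAs, with values down to 0.337 TPM. Whether reads were counted by strand is not given in the sources used here. The same holds for how reads in overlapping genes or on more than 1 gene were counted.

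**Figure D5:**
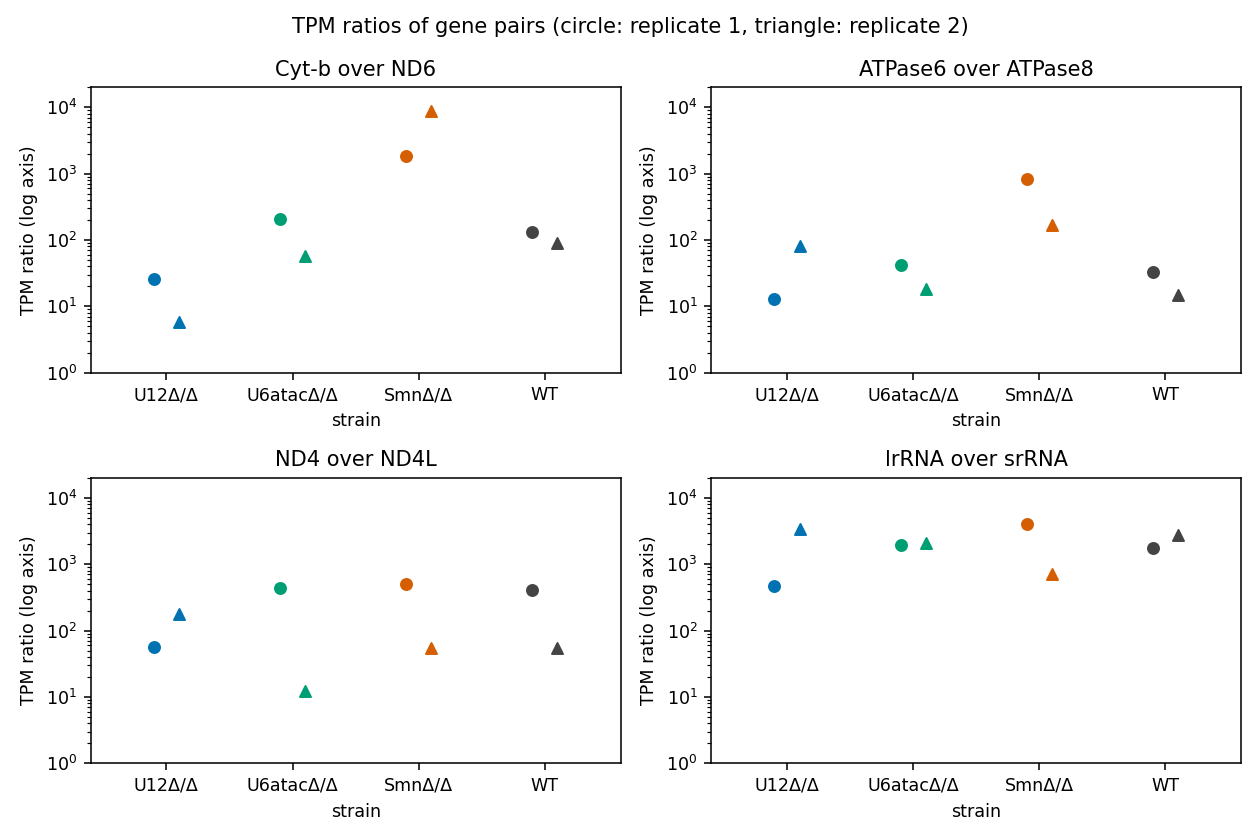
TPM ratio (log y axis) of mt:Cyt-b to mt:ND6, mt:ATPase6 to mt:ATPase8, mt:ND4 to mt:ND4L and mt:lrRNA to mt:srRNA for the 4 strains (x axis), with circles for replicate 1 and triangles for replicate 2. In the upper panels both SmnΔ/Δ libraries (1872 and 8823, and 831 and 170) lay above the other 6, and in the lower panels the strains overlapped.

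The tRNA genes, which are 61 to 73 bases long, were listed at or near 0. Of the 22, 12 were listed at 0 in all 8 libraries and none reached a mean of 1 TPM, so none entered the test. The number above 0 was 7 and 2 in the U12Δ/Δ libraries, 5 and 6 in the U6atacΔ/Δ libraries, 2 and 7 in the SmnΔ/Δ libraries, and 5 and 3 in the WT libraries. The highest single value was 0.395 TPM for mt:tRNA:Leu-TAG in U6atacΔ/Δ replicate 2. The highest means over the libraries were 0.0812 TPM for mt:tRNA:Ala-TGC, 0.0775 TPM for mt:tRNA:Cys-GCA and 0.0633 TPM for mt:tRNA:Leu-TAG. mt:tRNA:Ala-TGC carries alanine and was at 0.335 TPM at most, again in U6atacΔ/Δ replicate 2.

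By the median absolute difference, the gap between the libraries of a strain was wider for these genes than for all genes in U12Δ/Δ and WT larvae. It was similar or narrower in the other strains. The SD of the differences was smaller for the 15 members in every strain. It was 1.30, 1.61, 0.92 and 0.83 in U12Δ/Δ, U6atacΔ/Δ, SmnΔ/Δ and WT larvae, against 1.93, 1.77, 1.88 and 1.82 over all genes. Between the 2 libraries of a strain the median absolute difference of the 15 members was 1.33 on the log2(TPM + 1) scale in U12Δ/Δ larvae, 0.84 in U6atacΔ/Δ larvae, 0.88 in SmnΔ/Δ larvae and 1.74 in WT larvae, against 0.98, 0.85, 1.00 and 1.01 over all genes tested. In WT larvae 13 of 15 members were higher in replicate 1. For 9 of them (mt:ND2, mt:CoI, mt:CoII, mt:ATPase6, mt:ND3, mt:ND5, mt:Cyt-b, mt:ND1 and mt:ND4) replicate 1 was between 3.34 and 3.92 times replicate 2, a nearly common factor, while mt:CoIII differed by 1.06-fold. In the deletion strains the gaps were uneven from gene to gene, up to 16.6-fold for mt:ATPase8 in U12Δ/Δ larvae, and in U12Δ/Δ larvae mt:CoIII differed by 8.27-fold beside 1.04-fold for mt:ND2.

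Mitochondrial RNA is made, cut, coated and degraded by nuclear-encoded proteins, of which 28 were listed from textbook roles, and 24 of these were tested. In the comparisons with WT 0 of the 24 passed the adjusted threshold in limma, and 1 in each comparison had an unadjusted p under 0.05. Over all genes tested 9.44%, 10.3% and 13.9% met the unadjusted threshold for U12Δ/Δ, U6atacΔ/Δ and SmnΔ/Δ larvae, so the list did not exceed the background. The median difference of the list was -0.36 in U12Δ/Δ larvae, -0.16 in U6atacΔ/Δ larvae and -0.18 in SmnΔ/Δ larvae, beside -0.53, -0.49 and -0.18 over all genes tested. Suv3, an RNA helicase that helps to degrade mitochondrial RNA, was at 190 and 11.7 TPM in the SmnΔ/Δ libraries, against 3.70 and 3.32 TPM in the WT libraries (difference 3.45, SE 1.30, limma adjusted p = 0.284). Both SmnΔ/Δ values were above WT, but replicate 1 stood far from replicate 2, and the difference was 1.498 without it. The transcription termination family member mTerf3 was at 23.9 and 6.78 TPM in the SmnΔ/Δ libraries, against 4.27 and 1.39 TPM in the WT libraries (limma adjusted p = 0.455). Suv3 was also above both WT libraries in U6atacΔ/Δ larvae (4.93 and 7.45 TPM), and mTerf3 in U12Δ/Δ larvae (6.56 and 5.36 TPM). Suv3 in U12Δ/Δ larvae and mTerf3 in U6atacΔ/Δ larvae overlapped with WT.

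In U12Δ/Δ larvae the smallest p values of that list belonged to Ets97D, which encodes a DNA-binding factor related to mammalian GABPA, a regulator of nuclear genes for mitochondrial proteins, and to TFAM, which packages mitochondrial DNA. Ets97D was at 3.22 and 3.03 TPM in the U12Δ/Δ libraries, 1.86 and 7.83 TPM in the U6atacΔ/Δ libraries, and 11.1 and 23.1 TPM in the WT libraries, below both WT libraries in either strain (limma adjusted p = 0.519 and 0.530). The SmnΔ/Δ libraries, at 5.21 and 7.17 TPM, were below both WT libraries as well. TFAM was at 8.59 and 2.06 TPM in the U12Δ/Δ libraries, against 10.1 and 38.0 TPM in the WT libraries (adjusted p = 0.563 in limma). It was also below both WT libraries in SmnΔ/Δ larvae (6.41 and 9.81 TPM), while the U6atacΔ/Δ libraries overlapped with WT (8.87 and 12.4 TPM). In U6atacΔ/Δ larvae bsf, an RNA-binding protein of the pentatricopeptide repeat family, was at 23.99 and 6.97 TPM, against 229 and 48.7 TPM in WT larvae (difference -2.92, SE 1.19, limma adjusted p = 0.451). This order was not particular to U6atacΔ/Δ larvae. bsf was at 31.7 and 30.3 TPM in the U12Δ/Δ libraries and 43.1 and 15.1 TPM in the SmnΔ/Δ libraries, so every deletion library lay below both WT libraries. None of these differences passed the adjusted threshold.

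The nuclear-encoded subunits that assemble with the mitochondrial ones numbered 42, with 41 tested and 0 called against WT in limma. At an unadjusted p under 0.05 there was 1 in U12Δ/Δ larvae, 1 in U6atacΔ/Δ larvae and 0 in SmnΔ/Δ larvae, against 9.44%, 10.3% and 13.9% of all genes. The median difference was -0.60 in U12Δ/Δ larvae, 0.04 in U6atacΔ/Δ larvae and 0.03 in SmnΔ/Δ larvae, again beside -0.53, -0.49 and -0.18 over all genes. The ATP synthase subunit gene ATPsynB was at 938 and 609 TPM in the U6atacΔ/Δ libraries, against 106 and 53.6 TPM in the WT libraries (difference 3.31, SE 1.30, limma adjusted p = 0.447). It was above both WT libraries in U12Δ/Δ larvae too (367 and 315 TPM), while the SmnΔ/Δ libraries overlapped with WT (69.6 and 661 TPM). ATPsynG, of the membrane part of ATP synthase, was at 9.63 and 56.7 TPM in the U12Δ/Δ libraries and 73.3 and 41.9 TPM in the U6atacΔ/Δ libraries, against 58.7 and 2351 TPM in the WT libraries, where WT replicate 2 alone was high. ATPsynO, a subunit of the stalk, was at 34.5 and 26.7 TPM in the U12Δ/Δ libraries, against 162 and 104 TPM in the WT libraries (limma adjusted p = 0.558). It was below both WT libraries in SmnΔ/Δ larvae too (70.4 and 31.7 TPM), while the U6atacΔ/Δ libraries overlapped with WT (109 and 83.5 TPM). In SmnΔ/Δ larvae the complex I gene ND-39 was at 456 and 447 TPM, against 148 and 38.5 TPM in WT larvae, and the complex IV gene cype was at 186 and 248 TPM, against 60.9 and 15.7 TPM in WT larvae (limma adjusted p = 0.365 and 0.376). cype was above both WT libraries in U12Δ/Δ larvae too (79.8 and 153 TPM) but overlapped with WT in U6atacΔ/Δ larvae. ND-39 overlapped with WT in both of these strains.

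Summed in each library, the 42 nuclear subunit genes held 3829 and 6994 TPM in the U12Δ/Δ libraries, 9330.5 and 6682 TPM in the U6atacΔ/Δ libraries, 9475 and 7605 TPM in the SmnΔ/Δ libraries, and 6020 and 11489 TPM in the WT libraries. The mitochondrial mRNAs amounted to 1.48 and 0.283 times that sum in the U12Δ/Δ libraries, 0.902 and 0.4998 times in the U6atacΔ/Δ libraries, 1.27 and 1.21 times in the SmnΔ/Δ libraries, and 1.82 and 0.337 times in the WT libraries. The WT pair spanned the ratio of every deletion library but U12Δ/Δ replicate 2, and only the SmnΔ/Δ libraries were close to each other.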

How the data were processed

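RNA of whole L3 larvae was sequenced by the authors as paired-end mRNA reads on an Illumina instrument. The deposited values are TPM per gene, and each library sums to 1000000. The submitters' processing notes name TopHat2, featureCounts and build dm6. The tool that computed TPM and the counting settings are not given in the sources used here. The study lists the reads mapped per library, which were not used here, since the deposited TPM hold no read counts per gene. Symbols were matched through the Ensembl BDGP6 annotation (17330 of 17473 genes), and 32 of the 37 mt: genes had the same position in both. The mitochondrial control region was not analysed here.

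The 11122 genes that averaged 1 TPM or more over the 8 libraries were tested on log2(TPM + 1) with limma 3.58.1 in R 4.3.3, with all 4 strains in 1 fit, a trend in eBayes and Benjamini-Hochberg adjustment at 0.05. The fold change of low genes is understated on this scale. The study calls the 2 libraries of a strain biological repeats, each from pooled larvae, so p-values measure the spread between such pools. Sums, shares and ratios were computed in Python 3.11.15 with no test. Over all genes tested, same-numbered libraries did not deviate together (r between -0.02 and 0.11), so replicate numbers were not used as pairs. The share of the mitochondrial protein-coding genes, however, was higher in replicate 1 in each strain. The fit was also run on simulated data with the same spread for every gene, unlike these data, so power at the spread seen here cannot be read from it.

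Alternatives were a pseudocount of 0.1, no filter, a filter at an average of 5 TPM, scaling by the median ratio, TPM rescaled over nuclear genes, only the 4 libraries compared, a replicate block, eBayes without a trend and leaving out each library. The members and lists were chosen with earlier results of these data known. Named were all protein-coding and rRNA members, the 3 tRNAs of highest mean, and from each nuclear list those called (up to 5) and the 2 of smallest p for each comparison with WT. Gene pairs for ratios and the 9 WT genes of nearly equal fold were chosen after their values were seen.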

Additional observations from a re-analysis of the deposited data

How the results depend on the processing

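The count of 0 mitochondrially encoded genes called held in all 5 comparisons under each of the 16 alternatives, and the smallest adjusted p among the 813 alternative values of single members in limma was 0.113 (mt:ND6, U12Δ/Δ minus SmnΔ/Δ, 3.42 on the log2 scale under median-ratio scaling). Counts of 0 for the 2 nuclear lists against WT held as well. Over all genes, replicate numbers did not pair the libraries. A replicate block gave 0 members called. Over all genes it called 0, 0 and 149 for U12Δ/Δ, U6atacΔ/Δ and SmnΔ/Δ against WT. It called 137 and 142 for U12Δ/Δ and U6atacΔ/Δ against SmnΔ/Δ. Median-ratio scaling turned the sign of 15 uncalled differences. For U12Δ/Δ minus WT these became 0.017 for mt:CoII, 0.60 for mt:CoIII, 0.053 for mt:ND2, 0.051 for mt:ND3, 0.27 for mt:ND4 and 0.31 for mt:srRNA. For U6atacΔ/Δ minus WT they became 0.25 for mt:CoI, 0.28 for mt:CoIII, 0.031 for mt:Cyt-b, 0.67 for mt:ND2, 0.38 for mt:ND5, 0.041 for mt:ND6, 0.39 for mt:lrRNA and 0.47 for mt:srRNA, and for SmnΔ/Δ minus WT mt:ND1 became 0.16. The alternative puts the median of all genes near 0, which moves every gene of a comparison by a like amount.

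Leaving out a library also turned uncalled differences. For U12Δ/Δ minus WT the range over the 8 libraries left out was -0.26 to 1.68 for mt:ATPase6, -1.44 to 2.04 for mt:ATPase8, -1.70 to 0.27 for mt:CoII, -1.66 to 1.38 for mt:CoIII, -1.52 to 0.20 for mt:ND2, -1.58 to 0.25 for mt:ND3, -1.52 to 0.60 for mt:ND4, -0.80 to 1.47 for mt:ND4L, -0.13 to 1.10 for mt:ND6 and -1.37 to 0.60 for mt:srRNA. For U6atacΔ/Δ minus WT it was -1.34 to 0.39 for mt:CoI, -1.82 to 0.14 for mt:CoII, -1.80 to 0.91 for mt:CoIII, -1.76 to 0.37 for mt:Cyt-b, -1.02 to 0.95 for mt:ND2, -0.63 to 1.21 for mt:ND3, -1.35 to 2.53 for mt:ND4, -1.31 to 0.62 for mt:ND5, -1.22 to 0.014 for mt:ND6 and -0.81 to 0.38 for mt:srRNA. For SmnΔ/Δ minus WT it was -0.92 to 1.05 for mt:CoII, -0.99 to 0.91 for mt:ND1, -0.71 to 1.13 for mt:ND3, -0.52 to 1.25 for mt:ND4, -0.48 to 0.90 for mt:ND4L and -0.89 to 0.38 for mt:srRNA. Another 28 uncalled differences (19 of mitochondrially encoded and 9 of nuclear genes) kept their sign but moved by over 1.5 times, and 18 of them came nearest to 0 without a WT library. For U12Δ/Δ minus WT the range was -2.57 to -0.83 for mt:CoI and -3.59 to -1.65 for mt:Cyt-b, for U6atacΔ/Δ minus WT 0.44 to 2.38 for mt:ATPase6, 0.62 to 1.68 for mt:ND4L and -2.43 to -0.52 for mt:ND1, and for SmnΔ/Δ minus WT 0.62 to 2.56 for mt:ATPase6, -2.39 to -0.94 for mt:ATPase8, 0.52 to 2.46 for mt:Cyt-b and 1.498 to 5.40 for Suv3. The median over the members ran from -1.51 to 0.20, -0.81 to 0.39 and -0.92 to 0.34 for U12Δ/Δ, U6atacΔ/Δ and SmnΔ/Δ minus WT. A strain left with 1 library was assumed to vary like the others.

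The ratio of the SmnΔ/Δ to the WT mean share was 0.796 over all members, but 1.43 over the protein-coding members only and 1.43 over all members but the 2 rRNAs. Without SmnΔ/Δ replicate 1 it was 0.547 and without WT replicate 1 it was 1.05. The U12Δ/Δ ratio lay between 0.360 and 0.591 over the libraries left out.

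The background counts over all genes in limma moved more. SmnΔ/Δ against WT had 168 calls, 267 with no filter, 89 at a mean TPM of 5 or more, 40 with only the 4 libraries compared and 90 without a trend. U6atacΔ/Δ against WT had 0 calls and 18 with no filter. U12Δ/Δ against SmnΔ/Δ had 146 calls, 81 at a mean TPM of 5 or more, 0 with only the 4 libraries compared and 97 without a trend, and U6atacΔ/Δ against SmnΔ/Δ had 146, 85 at a mean TPM of 5 or more and 0 with only the 4 libraries compared. Leaving out a library gave 0 to 70 calls for U12Δ/Δ against WT and 0 to 73 for U6atacΔ/Δ against WT, in both cases the highest without WT replicate 2, 95 to 237 for SmnΔ/Δ against WT, 25 to 276 for U12Δ/Δ against SmnΔ/Δ and 29 to 261 for U6atacΔ/Δ against SmnΔ/Δ. The causes were not tested. With 2 libraries a strain and SEs of 0.83 or more, differences of the size seen here could not be told from the spread between libraries, and the number of reads counted for the low values of mt:ND6, mt:ATPase8, mt:ND4L and the tRNAs cannot be read from TPM.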
